A study of Mus musculus with 32 samples.

Results

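Gpnmb encodes a heavily glycosylated membrane protein of melanosomes, lysosomes and phagosomes that macrophages make when their lysosomes are loaded with lipid or cell debris. The MiT/TFE family (Mitf, Tfeb, Tfe3 and Tfec) are transcription factors that bind E-box motifs in the promoters of lysosomal and autophagy genes, and in resting cells Tfeb, Tfe3 and Mitf are held in the cytoplasm by the nutrient sensor mTORC1 at the lysosome surface. Calcium released through the channel mucolipin 1 is one of the signals known to let Tfeb enter the nucleus, and Gpnmb and the V-ATPase subunit Atp6v0d2 are known targets of the family in macrophages and osteoclasts.

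The 10 genes described here are Gpnmb, the mucolipin channels Mcoln1, Mcoln2 and Mcoln3, Atp6v0d2, the 4 MiT/TFE factors, and Sgsh, the lysosomal sulfamidase that removes sulfate from heparan sulfate. They were taken by symbol from the 24940 genes of the authors' expression table. The choice was made with these RNA values known, so the genes' own levels and differences are a description, given with errors and without p-values. All 10 averaged 1 TPM or more over the 16 RNA libraries, the filter for testing.

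Cells were sorted from whole dissociated lungs of DBA2J and C57BL6J mice, both labelled as given no treatment, although the title of the series speaks of activated phagocytes. The antibodies of the sort were against SiglecF, Ly6g, Ly6c, CD64, CD11b, CD11c, F4/80 and CD45. The 4 cell types were alveolar macrophages (AM) of the airspaces, interstitial macrophages (IM) of the lung wall, inflammatory monocytes (iMo) and patrolling monocytes (pMo), the last 2 also called macrophages in some labels. Each cell type and strain had 2 RNA-seq libraries and 1 list of open chromatin peaks made from 2 ATAC-seq libraries. No label gives the age of the mice, says that replicates came from separate animals, or gives a genotype at any of these genes. The spread between replicates may therefore be technical. DBA/2J mice are known from the literature to carry a nonsense allele of Gpnmb, which contributes to the pigmentary glaucoma of that strain.

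Promoters of 3 of the genes are shown because their results differ: Gpnmb differed between strains, Mcoln1 varied least between groups, and Sgsh was near 0 in 1 group. The sequences are those of RefSeq on GRCm38.p6, a C57BL/6J reference, from 250 bases before to 50 after the start of the gene. Capitals mark the MiT/TFE core TCACGTG, or its reverse complement.
Gpnmb promoter (chr6:49036268-49036567, plus strand): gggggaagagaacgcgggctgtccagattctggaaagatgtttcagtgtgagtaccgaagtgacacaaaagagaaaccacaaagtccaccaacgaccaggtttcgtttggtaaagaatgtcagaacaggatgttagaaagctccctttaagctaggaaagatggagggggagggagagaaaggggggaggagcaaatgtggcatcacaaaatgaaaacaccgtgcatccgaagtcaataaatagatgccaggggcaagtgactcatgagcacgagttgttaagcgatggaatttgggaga
Mcoln1 promoter (chr8:3500269-3500568, plus strand): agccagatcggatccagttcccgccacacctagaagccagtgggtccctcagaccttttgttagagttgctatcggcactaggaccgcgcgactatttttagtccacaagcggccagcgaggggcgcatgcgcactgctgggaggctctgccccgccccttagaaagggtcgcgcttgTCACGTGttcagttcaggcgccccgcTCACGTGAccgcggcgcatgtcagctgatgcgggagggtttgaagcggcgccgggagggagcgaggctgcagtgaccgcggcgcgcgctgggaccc
Sgsh promoter (chr11:119355461-119355760, minus strand): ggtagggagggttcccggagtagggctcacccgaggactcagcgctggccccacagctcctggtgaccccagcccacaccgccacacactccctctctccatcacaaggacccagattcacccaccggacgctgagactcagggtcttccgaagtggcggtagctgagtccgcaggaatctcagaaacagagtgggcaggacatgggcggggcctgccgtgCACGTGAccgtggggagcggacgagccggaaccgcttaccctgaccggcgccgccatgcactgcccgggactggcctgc

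The cores TCACGTG and TCATGTG were searched on both strands, and a match is a description of the letters, not a bound site. Mcoln1 held TCACGTG at 2 places, with first bases at -72 and -46 relative to the start, and the second of them reads as the core on both strands. Sgsh held it once on the reverse strand, with its first base at -29. The Gpnmb window held neither core. Of 32851 RefSeq promoters of the same length, 3.77% held TCACGTG, 3.77% held TCATGTG and 7.40% held either. RefSeq promoters were found for 9 of the 10 genes, not for Atp6v0d2, and 2 of the 9 held a 7-base core. The 6-base cores CACGTG and CATGTG, which lie inside the 7-base ones, were found in 3 of the 9 genes, the third being Mcoln2. Either was held by 20.4% of all promoters. The 9 genes had 14 promoters, whereas the shares count single promoters, so no excess is read from the gene counts.

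The authors' TPM divide reads by the genomic span of a gene rather than by transcript length, as the steps between low values show. TPM here compare 1 gene between libraries, and levels of different genes are not ranked. Low values in every library were whole multiples of 1 read within a tolerance of 0.1, so reads could be recovered, and the libraries held 6.68 to 22.6 M reads in genes. The ribosomal entries Rn45s and Mir6236 took 22.6% to 67.6% of the summed TPM, most in AM. A larger share lowers the TPM of the other genes in a library. The median log2 difference of AM minus IM over all 12277 tested genes was -0.68 on the deposited scale and 0.06 after median-of-ratios scaling. Over the 12275 genes left after rescaling without the ribosomal entries it was still -0.26. On the deposited scale the median was -0.17 for macrophages minus monocytes and 0.13 for iMo minus pMo.

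Markers of other cell types differed between the strains, in IM and in other cells. The 10 markers of AM summed to 276 to 304 TPM in DBA2J IM and 671 to 1044 TPM in C57BL6J IM, with 2110 to 2273 TPM in DBA2J AM and 2781 to 2934 TPM in C57BL6J AM. The 10 neutrophil markers summed to 4085 to 4728 TPM in DBA2J IM and 2875 to 3122 TPM in C57BL6J IM, and to at most 240 TPM in any other library. The 8 iMo markers summed to 1914.8 to 1934.4 TPM in DBA2J IM and 1239.7 to 1454.5 TPM in C57BL6J IM. Of the 10 IM markers, the complement genes C1qa, C1qb and C1qc set the IM apart. C1qa averaged 747 TPM in DBA2J IM and 1375 TPM in C57BL6J IM, 1.35 TPM in DBA2J AM and 0.592 TPM in C57BL6J AM, and at most 28.6 TPM in a monocyte group. Not all the IM markers did so. Cx3cr1 averaged 180 TPM in DBA2J IM and 191 TPM in C57BL6J IM, against 241 to 256 TPM in the monocyte groups. Mrc1 averaged 63.2 TPM in DBA2J IM and 93.0 TPM in DBA2J AM. The 5 epithelial markers summed to 1.49 to 2.09 TPM in DBA2J AM and 18.7 to 19.2 TPM in C57BL6J AM, where Epcam made up most of the sum with means of 0.486 TPM in DBA2J and 12.05 TPM in C57BL6J. They summed to 7.67 to 33.7 TPM in DBA2J IM and 25.3 to 67.9 TPM in C57BL6J IM, and to 1.204 to 1.79 TPM in DBA2J pMo and 5.34 to 21.9 TPM in C57BL6J pMo. The T and NK cell markers summed to 2.95 to 4.73 TPM in DBA2J iMo and 38.3 to 56.4 TPM in C57BL6J iMo, and to 9.30 to 33.5 TPM in DBA2J pMo and 83.9 to 91.3 TPM in C57BL6J pMo. Of 5 melanocyte markers, 4 lay under 1 TPM in every group, so Gpnmb, also a melanocyte gene, was not accompanied by them.

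Gpnmb was a macrophage transcript in C57BL6J mice and much lower in DBA2J macrophages. In AM it had 26.2 and 11.6 TPM in the DBA2J libraries, against 83.7 and 74.3 TPM in the C57BL6J libraries. In IM it had 1.05 and 1.82 TPM in DBA2J and 60.5 and 41.7 TPM in C57BL6J. The strains did not overlap in either macrophage, and the DBA2J IM libraries lay below every monocyte library. The C57BL6J mean was 4.18 times the DBA2J mean in AM and 35.6 times in IM. On the log2(TPM + 1) scale, which understates changes of low genes, the DBA2J minus C57BL6J difference was -2.11 ± 0.45 in AM and -4.41 ± 0.45 in IM (SE, limma, n = 2 a group). The DBA2J AM libraries differed widely, and the AM difference was -2.67 without replicate 1 and -1.55 without replicate 2 of that group. The epithelial marker sums given above were lower in DBA2J AM too, without overlap, and lower with overlap in DBA2J IM, and their part in the Gpnmb difference was not tested. Fewer cells of a type and less RNA per cell cannot be told apart in such bulk samples.

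Monocytes had little Gpnmb and no common strain difference. In iMo the levels were 5.36 and 4.67 TPM in DBA2J and 2.08 and 2.93 TPM in C57BL6J, so here DBA2J was the higher strain, by a log2 difference of 0.79 ± 0.45. In pMo they were 2.35 and 2.01 TPM in DBA2J and 1.96 and 7.34 TPM in C57BL6J, which overlap. Their difference of -0.64 ± 0.45 became 0.10 without replicate 2 of the C57BL6J pMo and -1.39 without replicate 1.

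**Figure D1:**
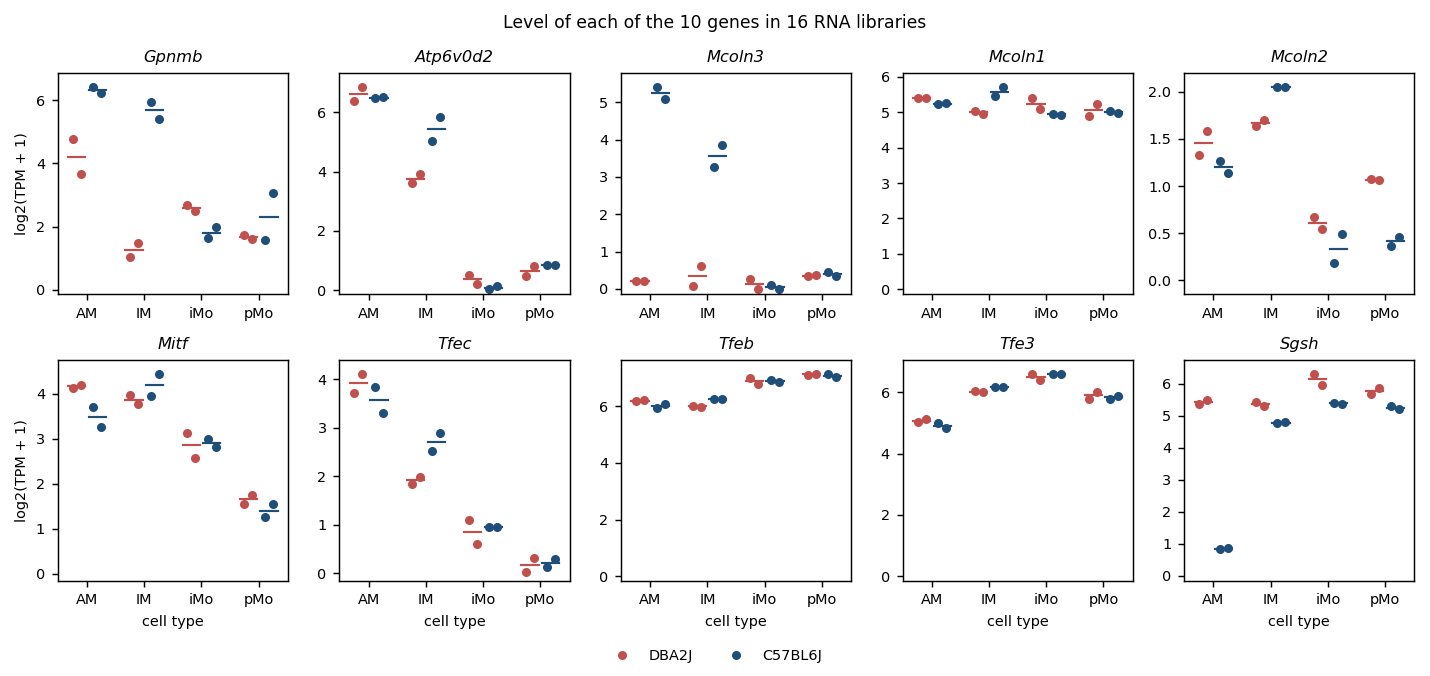
Level of each of the 10 genes, as log2(TPM + 1), in the 4 cell types, with DBA2J left of C57BL6J. Points are single libraries and lines are group means (n = 2). Gpnmb and Mcoln3 stand high in C57BL6J macrophages, Sgsh is under 1 TPM in C57BL6J AM alone, and Tfeb is lower in macrophages than in monocytes.

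Atp6v0d2, the d2 subunit of the proton pump that acidifies lysosomes and is typical of osteoclasts and AM, separated the cell types most. In AM it had 83.1 and 114 TPM in DBA2J and 88.5 and 90.0 TPM in C57BL6J, which overlap. In IM it had 11.3 and 14.04 TPM in DBA2J and 32.0 and 55.9 TPM in C57BL6J, without overlap. Monocyte libraries ranged from 0.033 to 0.814 TPM, on 2 to 65 reads, so every macrophage library lay above every monocyte library. The difference of macrophages minus monocytes was 5.10 ± 0.13, and that of AM minus IM was 1.96 ± 0.18 (log2, SE). Its ratio to Atp6v0d1, the d1 subunit made by most cells, does not depend on library scaling, though each gene's own span does enter it. It ran from 2.95 to 3.66 in AM, 0.451 to 1.94 in IM, 0.00126 to 0.0166 in iMo and 0.0172 to 0.0344 in pMo. AM lay above IM, and IM above both monocytes, with no overlap. Atp6v0d1 itself stayed between 22.0 and 32.8 TPM in all 16 libraries.

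The strain difference of Atp6v0d2 in IM (-1.67 ± 0.26) went with the AM transcripts in those libraries. The IM mean of Atp6v0d2 was 12.9% of the AM mean in DBA2J and 49.2% in C57BL6J. For the 10 AM markers the same share had a median of 8.27% in DBA2J (4.61% to 65.8%) and 23.2% in C57BL6J (7.84% to 59.3%). Gpnmb in IM was at 7.59% of its AM level in DBA2J and 64.7% in C57BL6J, and Tfec at 19.6% and 50.7%. The C57BL6J shares of Atp6v0d2 and Tfec lie inside the range of the markers and above their median, and that of Gpnmb lies above every marker. The part that AM transcripts have in the IM levels of these genes was not tested.

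**Figure D2:**
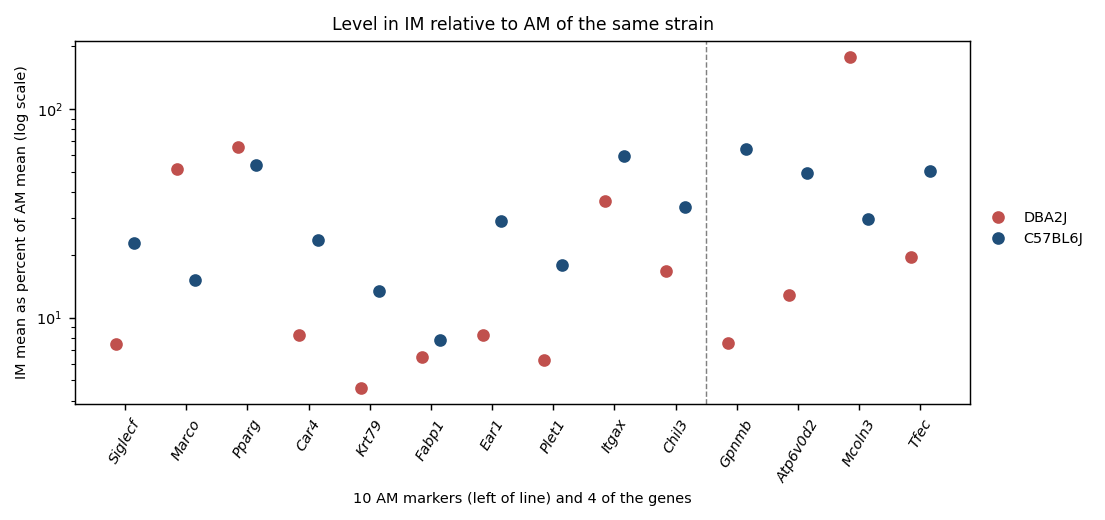
Mean level in IM as a percentage of the mean level in AM of the same strain, on a log axis, for 10 AM markers (left of the dashed line) and 4 of the genes, DBA2J left of C57BL6J (means of 2 libraries). Of the markers, Marco and Pparg have the larger share in DBA2J and the other 8 in C57BL6J. Mcoln3 in DBA2J rests on at most 13 reads per library.

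Among the mucolipins, cation channels of endosomes and lysosomes, Mcoln1 was made throughout and Mcoln3 was nearly confined to C57BL6J macrophages. Mcoln1 ranged only from 28.6 to 51.1 TPM over the 16 libraries. In IM it had 31.9 and 30.2 TPM in DBA2J and 42.8 and 51.1 TPM in C57BL6J, a difference of -0.58 ± 0.16. Its other strain differences were 0.18 in AM, 0.30 in iMo and, with overlap, 0.05 in pMo (log2). After median-of-ratios scaling they were 0.024, 0.49 and 0.26. Macrophages exceeded monocytes by 0.25 ± 0.08, with overlapping libraries.

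Mcoln3 had 0.164 and 0.156 TPM in DBA2J AM, on 11 and 9 reads, against 41.3 and 33.4 TPM in C57BL6J AM, on 1802 and 2409 reads. The C57BL6J mean was 233 times the DBA2J mean. In IM it had 0.046 and 0.522 TPM in DBA2J, on 1 and 13 reads, against 8.62 and 13.5 TPM in C57BL6J, on 157 and 214 reads, a ratio of means of 38.9. The log2 differences were -5.04 ± 0.27 in AM and -3.23 ± 0.27 in IM, and no library of one strain overlapped the other. Monocyte libraries of both strains had at most 0.364 TPM, on 0 to 12 reads, which is a level at which no strain difference could be seen. The C57BL6J IM level was 29.6% of that in C57BL6J AM, against the marker median of 23.2%. As for Gpnmb, the epithelial marker sums moved in the same direction, and their part was not tested.

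Mcoln2, whose start lies 28383 bp from that of Mcoln3, did not share this pattern. Its libraries ranged from 0.133 to 3.15 TPM. In AM it had 1.51 and 2.00 TPM in DBA2J and 1.41 and 1.204 TPM in C57BL6J, so DBA2J was slightly higher where Mcoln3 was almost absent. In pMo it had 1.10 and 1.08 TPM in DBA2J against 0.290 and 0.377 TPM in C57BL6J, a difference of 0.65 ± 0.22. The AM minus IM difference of Mcoln2 was -0.53 ± 0.15 on the deposited scale, 0.066 after median-of-ratios scaling and 0.31 after quantile normalization, so it has no settled direction.

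The 4 MiT/TFE factors had 4 different patterns over the cell types. Tfec, the member largely restricted to macrophages and osteoclasts, had 12.1 and 16.4 TPM in DBA2J AM and 13.3 and 8.89 TPM in C57BL6J AM. It had 2.60 and 2.99 TPM in DBA2J IM and 4.77 and 6.46 TPM in C57BL6J IM, at most 1.13 TPM in iMo and at most 0.246 TPM in pMo. The 4 cell types stood in that order without overlap. Macrophages exceeded monocytes by 2.48 ± 0.13, AM exceeded IM by 1.43 ± 0.18, and iMo exceeded pMo by 0.71 ± 0.18 (log2).

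Mitf, the founding member and a regulator of pigment cells and osteoclasts, overlapped between AM and IM. It ranged from 8.59 to 17.4 TPM in AM, 12.6 to 20.8 TPM in IM, 4.98 to 7.81 TPM in iMo and 1.39 to 2.39 TPM in pMo. Macrophages exceeded monocytes by 1.72 ± 0.12 and iMo exceeded pMo by 1.35 ± 0.17, both without overlap. Its AM minus IM difference was -0.21 ± 0.17 as deposited and 0.63 after median-of-ratios scaling. In AM it had 16.4 and 17.4 TPM in DBA2J and 12.1 and 8.59 TPM in C57BL6J, a difference of 0.67 ± 0.24 and the largest strain difference of a MiT/TFE factor in AM.

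Of Tfeb and Tfe3, the broadly expressed members, Tfeb ran the other way in every library and Tfe3 only on average. Tfeb had 60.7 to 75.6 TPM in macrophages and 110 to 141 TPM in monocytes, and every macrophage library lay below every monocyte library. The difference of macrophages minus monocytes was -0.88 ± 0.06, and -0.71 after median-of-ratios scaling. For Tfe3 these values were -0.66 ± 0.06 and -0.49, with overlapping libraries. Tfe3 had 27.3 to 33.9 TPM in AM, 63.5 to 71.0 TPM in IM, 82.6 to 96.4 TPM in iMo and 54.2 to 63.1 TPM in pMo. Every IM library thus lay above every pMo library. The AM minus IM difference of Tfe3 was -1.10 ± 0.09, and -0.22 after median-of-ratios scaling. For Tfeb that difference was -0.02 ± 0.08 on the deposited scale and 0.87 after the scaling.

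Ratios between the factors within a library are free of the scaling. Tfec over Tfeb was 0.133 to 0.221 in AM, 0.0406 to 0.0854 in IM, 0.00481 to 0.00902 in iMo and 0.000166 to 0.00175 in pMo. Mitf over Tfeb was 0.129 to 0.235 in AM, 0.193 to 0.275 in IM, 0.0454 to 0.0622 in iMo and 0.00993 to 0.0170 in pMo. Tfe3 over Tfeb was 0.410 to 0.512 in AM, 0.935 to 1.02 in IM, 0.752 to 0.831 in iMo and 0.386 to 0.455 in pMo. In macrophages the balance thus stood further toward Tfec and Mitf, and IM differed from AM by more Tfe3 and less Tfec per Tfeb. The ratios share Tfeb as their denominator and the spans of the genes enter them, so only their change between cell types is read.

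Sgsh was near 0 in 1 of the 8 groups, the C57BL6J AM. In AM it had 40.6 and 43.8 TPM in DBA2J, on 1740 and 1611 reads, against 0.791 and 0.825 TPM in C57BL6J, on 22 and 38 reads. The DBA2J mean was 52.2 times the C57BL6J mean, a log2 difference of 4.58 ± 0.14. In IM it had 41.9 and 38.8 TPM in DBA2J and 26.1 and 27.1 TPM in C57BL6J. In iMo it had 78.5 and 61.6 TPM in DBA2J and 41.3 and 40.5 TPM in C57BL6J, and in pMo 50.0 and 57.03 TPM in DBA2J and 38.5 and 35.9 TPM in C57BL6J. DBA2J was the higher strain in all 4 cell types without overlap, by 1.44 to 1.71 times outside AM. The AM minus IM difference was -1.93 ± 0.10 over both strains, 0.064 in DBA2J alone and -3.93 in C57BL6J alone. The macrophages minus monocytes difference was -1.53 ± 0.07 over both, -0.55 in DBA2J alone and -2.50 in C57BL6J alone.

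The genes on either side of Sgsh, examined after its values were seen, shared the drop in C57BL6J AM. Slc26a11, an anion transporter gene that starts 47 bp away on the other strand, had 5.66 and 5.93 TPM in DBA2J AM against 0.119 and 0.123 TPM in C57BL6J AM. Card14, a scaffold of NF-kB signalling whose 3' end overlaps that of Sgsh by 1887 bp on the other strand, had 5.11 and 6.02 TPM in DBA2J AM against 0.141 and 0.094 TPM in C57BL6J AM. The DBA2J mean was 47.9 times the C57BL6J mean for Slc26a11 and 47.4 times for Card14.

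In the other cell types Card14 went with Sgsh and Slc26a11 did not. Card14 was higher in DBA2J by 1.68 times in IM, 1.37 times in iMo and 1.06 times in pMo, where its libraries overlapped between the strains. Slc26a11 was higher in C57BL6J, by 1.72 times in IM, 2.10 times in iMo and 1.74 times in pMo, whereas Sgsh was higher in DBA2J there. Gaa, the acid alpha-glucosidase of lysosomes, averaged 65.9 TPM in DBA2J AM and 39.7 TPM in C57BL6J AM. Eif4a3, a subunit of the exon junction complex, averaged 13.1 TPM in DBA2J AM and 11.6 TPM in C57BL6J AM. Thus 3 adjoining genes were near 0 in C57BL6J AM, and the next 2 on one side were not. The libraries were made strand-specific, but no source used here says whether counting used the strand, so reads in the shared stretch of Sgsh and Card14 cannot be assigned.

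**Figure D3:**
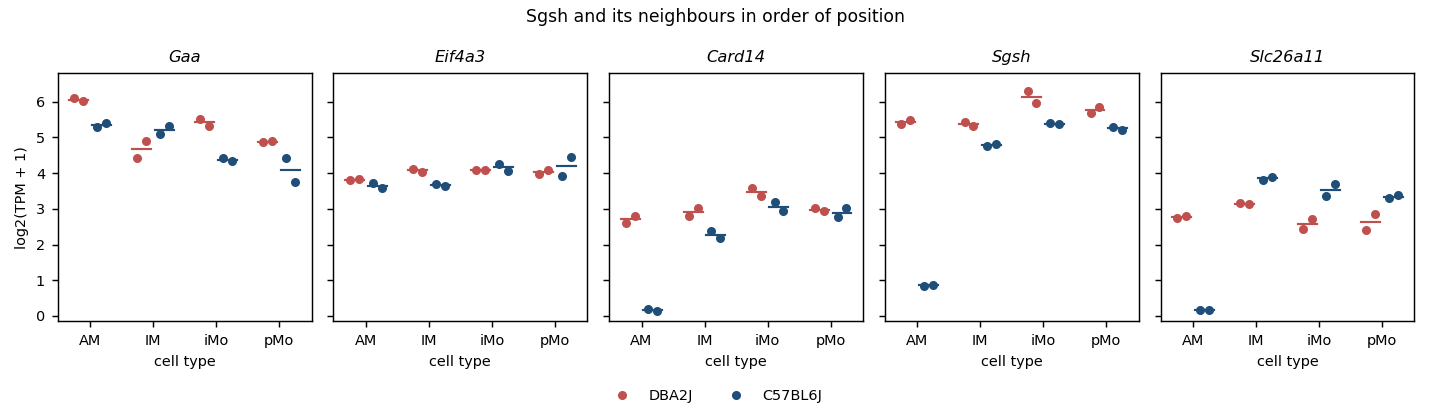
Level, as log2(TPM + 1), of Sgsh and its neighbours in their order on the chromosome, in the 4 cell types, DBA2J left of C57BL6J. Points are libraries and lines are group means (n = 2). Card14, Sgsh and Slc26a11 lie under 1 TPM in C57BL6J AM, and Gaa and Eif4a3 do not.

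Counts of the 10 genes whose libraries did not overlap between groups are given beside the same share of all 12277 tested genes, and since the genes were chosen on these values nothing is read from them. In macrophages minus monocytes 4 were higher and 1 lower (4.11% and 2.78% of all genes). In AM minus IM 2 were higher and 2 lower (5.94% and 53.1%), and in iMo minus pMo 3 were higher and 2 lower (15.1% and 5.19%). Between the strains, DBA2J was higher in AM for 6 genes and lower for 2 (35.2% and 17.9%), and in IM higher for 1 and lower for 8 (25.5% and 29.6%). In iMo 5 were higher and 0 lower (10.6% and 30.5%), and in pMo 3 were higher and 1 lower (13.2% and 25.9%). Over all cell types together none of the 10 was free of overlap between strains, against 0.684% of all genes.

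Open chromatin near the genes was read from the 8 peak lists, each 1 list for a cell type and strain. A peak's score is the authors' own, its scale is not given, and it is used only within its list. The lists held between 24429 peaks (DBA2J IM) and 70013 peaks (C57BL6J IM), so an absence in the shorter list carries less weight. Within 1000 bp of the start used in the expression table, a peak was present for 5 of the 10 genes in DBA2J AM and 5 in C57BL6J AM (69.3% and 63.2% of tested genes). The count was 3 in DBA2J IM and 5 in C57BL6J IM (72.2% and 84.9%), 4 and 4 in iMo (76.3% and 73.4%), and 3 and 4 in pMo (72.8% and 75.8%). In at least 1 list it was present for 6 genes (86.3%).

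The genes without a peak at that start were Mcoln3, Mitf, Tfeb and Tfec. For Mitf and Tfeb the table gives the start of a shorter transcript. The RefSeq start of Mitf 184725 bp further upstream, and those of Tfeb 48707 and 47813 bp upstream, had a peak in all 8 lists, as had the start of Tfe3 1380 bp upstream. Counted over any RefSeq start, 8 of the 10 genes had a peak, leaving Mcoln3 and Tfec. The share of all tested genes was not counted by that rule, so nothing is read from this count. Mcoln1 had its promoter peak in 7 lists, all but that of C57BL6J AM, and Mcoln2 in 7, all but that of DBA2J AM.

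Gpnmb had its strongest neighbouring peak at -9812 bp from its start. That peak outscored 96.0% of the peaks in DBA2J AM and 87.5% in C57BL6J AM, and it was found in C57BL6J IM, iMo and pMo but in no other DBA2J list. A peak at -671 bp was in both AM lists and in C57BL6J pMo, and one at -15282 bp in both AM lists only. At 70 bp a peak was in the C57BL6J AM list alone. The DBA2J AM, where the transcript was lower, thus held all 4 upstream peaks of the C57BL6J AM, the fourth at -5081 bp, and lacked those at 70 and 1009 bp. A peak at 3194 bp, inside the gene, was in both IM lists, both pMo lists and DBA2J iMo, and in neither AM list.

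Atp6v0d2 had a peak at its start, at 4 bp, and another at 3513 bp, in both AM lists and no other. The start peak outscored 59.5% of the peaks in DBA2J AM and 70.3% in C57BL6J AM. In C57BL6J IM, with 32.0 to 55.9 TPM of the transcript, no peak at the start was listed although that list is the longest. Tfec likewise had 2 peaks found in both AM lists only, at 8760 and 14710 bp, and Tfeb 1, at -23120 bp. Around Tfeb, peaks at -1128 bp and -25559 bp ranked high in AM. They lay above 98.6% and 97.7% of peaks in DBA2J and 94.3% and 86.7% in C57BL6J. On the deposited scale the Tfeb transcript was lower in AM than in monocytes. After median-of-ratios scaling its AM minus IM difference was 0.87, and AM alone was not compared with monocytes on that scale.

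Mcoln3 had no peak within 1000 bp of its start in any list, with 41.3 and 33.4 TPM in C57BL6J AM. Its nearest peak, at -3541 bp, was in both AM lists, at the lowest score of the DBA2J AM list, and in C57BL6J iMo. For Sgsh, a peak over the start at -13 bp was present in DBA2J AM, both IM lists and both iMo lists, and absent from C57BL6J AM. It was also absent from both pMo lists, where the transcript had 35.9 to 57.03 TPM. A second peak at 524 bp was kept in AM of both strains, above 87.6% of peaks in DBA2J AM and 89.1% in C57BL6J AM.

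Of 91184 merged peaks, 77 had 1 of the 10 genes as their nearest gene start within 100 kb. In all 8 lists were 9 of the 77 (13.9% of all peaks), with 6 in both AM lists and no other (4.33%) and 52 in at least 1 AM list (51.8%). Only in C57BL6J lists were 17 (37%), 8 of them in C57BL6J IM alone (22%), and 5 only in DBA2J lists (7.49%).

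**Figure D4:**
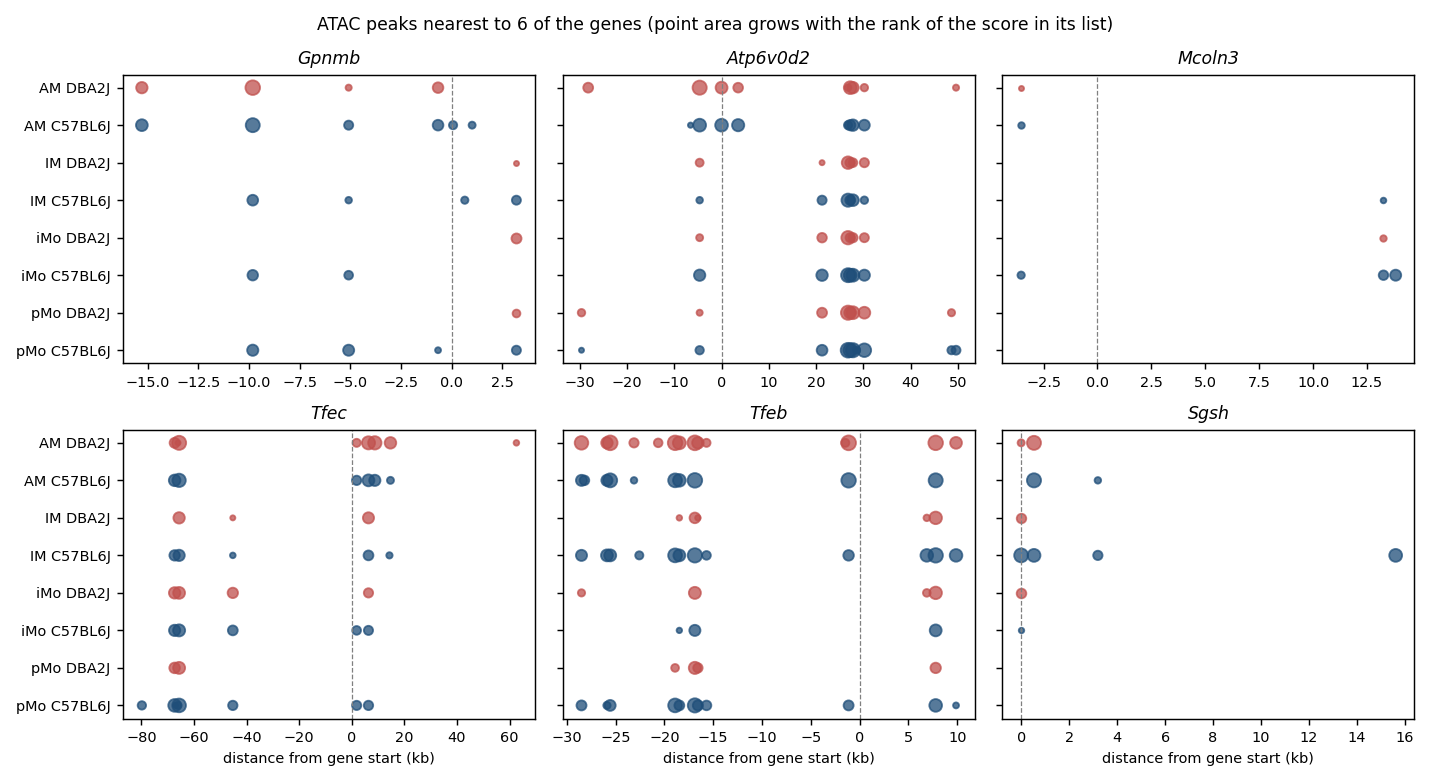
Peaks nearest to 6 of the genes by distance from the gene's start in kb, positive into the gene, with 1 row for each peak list (DBA2J above C57BL6J of each cell type). The area of a point grows with the rank of the peak's score within its own list. Gpnmb, Atp6v0d2 and Tfec have peaks in both AM rows that other rows lack, and the C57BL6J AM row of Sgsh lacks the peak at the start.

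The rest of the pathway was followed in 146 further genes in 8 lists, of which 136 were tested with limma at a Benjamini-Hochberg adjusted p under 0.05 over all 12277 genes. The lists were chosen with earlier results of these data known. In macrophages minus monocytes, 56 were higher and 31 lower, against 18.9% and 35.9% of all tested genes. The median log2 difference of the 136 was 0.13, against -0.17 for all genes. The split was 82 higher and 23 lower when TPM were rescaled without the ribosomal entries, and 71 and 28 after median-of-ratios scaling. Over all genes it was then 3586 and 2767 of 12275, and 3224 and 3651 of 12277.

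The acid hydrolases, which digest protein, lipid and sugar in the lysosome, had 15 of 31 higher and 5 lower in macrophages. Cathepsin K (Ctsk), the collagen-cutting protease of osteoclasts, averaged 61.7 ± 38.4 TPM in macrophages and 1.43 ± 0.79 TPM in monocytes (SD, n = 8 each), a log2 difference of 4.26 ± 0.21 with a limma Benjamini-Hochberg adjusted p of 2.77e-08. Cathepsin D (Ctsd) rose by 3.29 ± 0.11 and cathepsin F (Ctsf) by 3.27 ± 0.17. Among 12 lipid-associated and osteoclast-type genes 9 were higher and 3 lower. The secreted matrix protein Spp1 rose by 5.73 ± 0.14 and the lipase Lpl by 2.97 ± 0.20. The lipid carrier Apoe was lower by 2.02 ± 0.21 on this average of AM and IM, but not in IM. It averaged 143 TPM in DBA2J AM and 86.3 TPM in C57BL6J AM, 3524 and 5607 TPM in IM, and 2403 to 3465 TPM in the monocyte groups. Of 19 V-ATPase subunits 8 were higher and 2 lower, led by Atp6v0a1 at 1.22 ± 0.10. Of 19 genes of the lysosomal membrane 7 were higher and 6 lower, with the tetraspanin Cd63 at 3.45 ± 0.21 and the endolysosomal cation channel Tpcn1 at -1.18 ± 0.10. Tpcn1 averaged 1.77 TPM in DBA2J AM and 0.647 TPM in C57BL6J AM, and 15.9 and 31.6 TPM in IM, so its average also pools unlike macrophages.

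The heparan sulfate enzymes, to which Sgsh belongs, were split between the cell types. Of 9, 5 were higher in macrophages and 3 lower. The glucosaminidase Naglu averaged 47.3 ± 16.3 TPM in macrophages and 17.4 ± 3.39 TPM in monocytes (SD, n = 8 each). Heparanase (Hpse), which cleaves the chain outside and inside the cell, fell by 2.56 ± 0.19. The acetyltransferase Hgsnat fell by 1.02 ± 0.10. Hpse and Hgsnat were lower in AM than in IM of each strain, so these averages too pool unlike macrophages. Of 21 regulators of MiT/TFE activity, which act at mTORC1 or on the factors directly, 2 were higher and 5 lower. The higher ones were Fnip2 at 1.36 ± 0.12 and Rragc at 0.52 ± 0.11, partners in holding Tfeb and Tfe3 at the lysosome. Autophagy genes had 8 of 18 higher and 6 lower.

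The count for AM minus IM depends on the scaling. On the deposited scale 27 of the 136 were higher and 72 lower, against 9.19% and 61.1% of all genes. The split was 79 and 21 after median-of-ratios scaling, 56 and 37 without the ribosomal entries, and 71 and 30 in the read-based limma-voom fit. The all-gene split moved too. It was 4064 and 3534 of 12277 after median-of-ratios scaling, 2531 and 4919 of 12275 without the ribosomal entries, and 3395 and 4330 of 12275 with limma-voom. The V-ATPase subunits show the dependence most: 0 higher and 7 lower of 19 as deposited, and 15 higher and 0 lower after median-of-ratios scaling. Genes with 1 direction on all these scales were Ctsk (94.1 ± 3.86 TPM in AM and 29.3 ± 25.2 TPM in IM, SD, n = 4 each) and Ctsd, Pla2g15, Acp5, Lpl and Spp1 on the higher side in AM. Their log2 differences on the deposited scale ran from 1.41 ± 0.13 for the phospholipase Pla2g15 to 2.21 ± 0.30 for Ctsk. On the lower side were Apoe at -5.31 ± 0.29, Tpcn1 at -3.46 ± 0.14, Hpse at -3.33 ± 0.28, the syndecan Sdc4, a heparan sulfate carrier known to bind Gpnmb, at -3.14 ± 0.27, and Lgmn and Arsb at -2.20 ± 0.11 and -2.20 ± 0.15.

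In iMo minus pMo 51 of the 136 were higher and 7 lower, against 18.9% and 6.36% of all genes. The split was 35 and 11 after median-of-ratios scaling, 23 and 20 without the ribosomal entries, and 42 and 10 with limma-voom. Over all genes it was 1557 and 1555, 1139 and 1883, and 1937 and 1408 in the same order. The cholesterol carrier Npc2 averaged 230 ± 44.6 TPM in iMo and 45.2 ± 8.05 TPM in pMo (SD, n = 4 each), a log2 difference of 2.32 ± 0.11 with a limma Benjamini-Hochberg adjusted p of 5.08e-07. Hpse and the mTORC1 scaffold gene Lamtor4 both rose by 1.81, with SE of 0.28 and 0.21. The tetraspanin Cd9 fell by 2.76 ± 0.21 and the phosphatase Acp5 by 1.57 ± 0.15. Without replicate 1 of the DBA2J iMo the number called was 36 in place of 58.

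Strain differences in the pathway were few in AM and more in IM. In AM 4 of the 136 were higher in DBA2J and 1 lower, against 1.99% and 1.3% of all genes. The split was 10 and 6 with limma-voom and 5 and 3 after median-of-ratios scaling. Over all genes it was 613 and 451 with limma-voom and 336 and 310 after the scaling. Spp1 had a mean of 859 ± 59.7 TPM in DBA2J AM and 124 ± 5.76 TPM in C57BL6J AM (SD, n = 2 each), a log2 difference of 2.78 ± 0.29 with a limma Benjamini-Hochberg adjusted p of 0.000180. The V-ATPase subunit Atp6v0e2 rose by 3.16 ± 0.51, the related channel Tpcn2 by 1.21 ± 0.18 and the ATP-gated channel P2rx4 by 0.87 ± 0.18, and the proteolipid subunit Atp6v0c fell by 1.23 ± 0.29. Ctsk was not called by limma, with 92.4 and 89.6 TPM in DBA2J AM and 98.4 and 95.8 TPM in C57BL6J AM. The number called in AM was 2 or 3 without any 1 of the 4 AM libraries.

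In IM 3 of the 136 were higher in DBA2J and 26 lower, against 3.77% and 6.74% of all genes. The median log2 difference of the 136 was -0.24, against -0.01 for all genes, and 102 of the 136 lay below 0, against 50.9% of all genes. In AM the median was 0.17, against 0.09 for all genes, and 39 of the 136 lay below 0, against 35.3% of all genes. Of 31 acid hydrolases 8 were lower and 1 higher, of 19 lysosomal membrane genes 5 were lower and of 9 heparan sulfate enzymes 3 were lower. Ctsk had 4.74 and 10.6 TPM in DBA2J IM against 49.2 and 52.7 TPM in C57BL6J IM, a log2 difference of -2.67 ± 0.43 with a limma Benjamini-Hochberg adjusted p of 0.00324. Ctsd fell by 1.36 ± 0.22, the chloride transporter Clcn7 by 1.33 ± 0.15, Naglu by 1.31 ± 0.15 and the cholesterol transporter Npc1 by 0.95 ± 0.18. The sulfatase Arsb rose by 2.15 ± 0.21, and Atp6v0c fell by 1.82 ± 0.29.

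Among the regulators of MiT/TFE activity, Flcn fell by 0.84 ± 0.21, its partner Fnip2 by 1.00 ± 0.24 and Tsc2 by 0.55 ± 0.12, and Lamtor3 rose by 0.83 ± 0.24. These IM libraries hold the unequal AM marker sums given above, 276 to 304 TPM in DBA2J and 671 to 1044 TPM in C57BL6J. Their neutrophil and iMo marker sums, also given above, were higher in DBA2J. Of the genes called lower in DBA2J IM, Ctsk and Ctsd are high in AM of both strains, whereas Tpcn1 and Lgmn are lower in AM than in IM. Tpcn1 averaged 1.77 TPM in DBA2J AM and 0.647 TPM in C57BL6J AM, and 15.9 and 31.6 TPM in IM. Lgmn averaged 10.8 TPM in DBA2J AM and 12.6 TPM in C57BL6J AM, and 38.9 and 83.7 TPM in IM. The part of AM, neutrophil and iMo transcripts in the IM differences was not tested. The number called in IM was 16 and 17 without replicates 1 and 2 of the DBA2J IM, and 14 without replicate 2 of the C57BL6J IM.

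**Figure D5:**
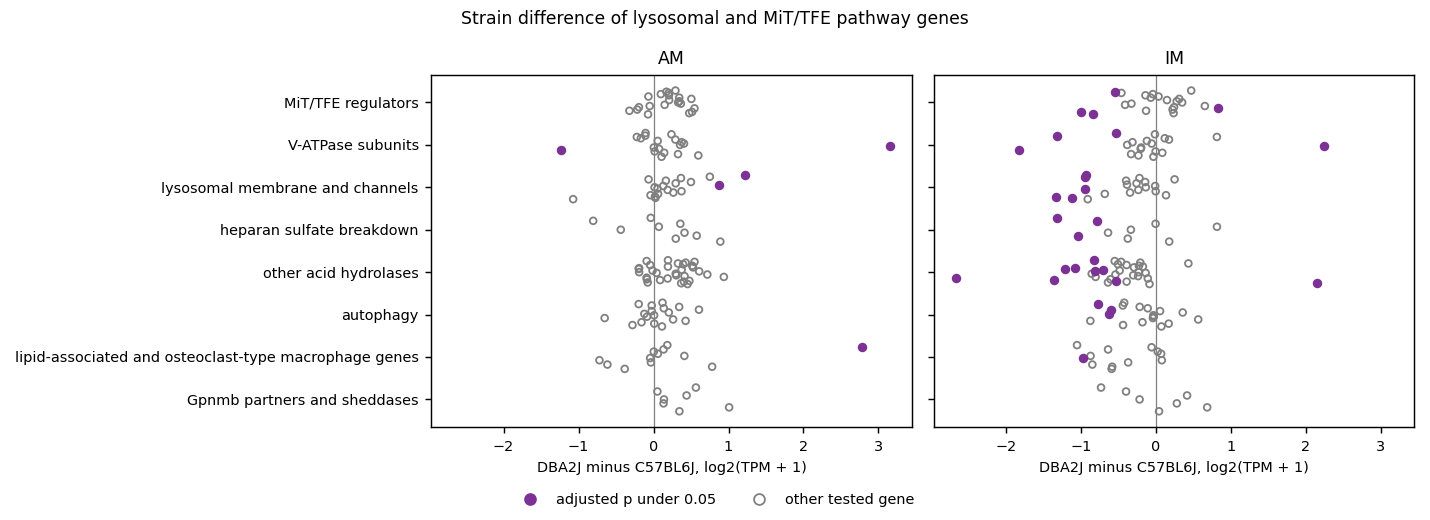
DBA2J minus C57BL6J difference of each of the 136 tested pathway genes in AM and IM, as log2(TPM + 1), by gene list. Filled points have a limma Benjamini-Hochberg adjusted p under 0.05. In AM 5 points are filled, in IM 29, of which 26 lie left of 0.

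In monocytes the strain differences were few. In iMo 3 were higher in DBA2J and 4 lower (1.31% and 2.16% of all genes), with 4 and 4 after median-of-ratios scaling and 3 and 2 without the ribosomal entries. In pMo 2 were higher and 4 lower (1.36% and 2.3%), with 3 and 3 after the scaling, 4 and 4 without those entries and 5 and 3 with limma-voom. Over all genes the iMo split was 269 and 245 after the scaling and 238 and 195 without those entries. The all-gene pMo split was 384 and 326, 316 and 295, and 392 and 450 with limma-voom. Arsb rose by 3.15 ± 0.21 in iMo and by 1.52 ± 0.21 in pMo. Averaged over the 4 cell types, 6 of the 136 were higher in DBA2J and 16 lower, against 4.37% and 7.31% of all genes. The number called in iMo was 1 to 4 without any 1 iMo library and 3 without either C57BL6J AM library. In pMo it was 2 without replicate 1 of DBA2J, 10 without replicate 1 of C57BL6J and 1 without replicate 2 of C57BL6J.

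Whether the strain difference depends on the cell type was tested with limma's F-test of the interaction. Of the 136 genes 10 were called, against 4.03% of all genes, among them Spp1, Arsb, Naglu, Tpcn2, Clcn7, Ctsb, Tpcn1, Gaa and Gla. Spp1 had the lowest Benjamini-Hochberg adjusted p of the 10 (0.00117, limma), Arsb 0.00183 and Naglu 0.00312. Ctsk, at 0.0513, did not pass. The number called was 20 without the ribosomal entries and 25 with limma-voom, 4 or 5 without any 1 AM library, 6 without replicate 1 of the DBA2J IM and 18 without replicate 1 of the C57BL6J IM. The share of all genes is not given for these settings, so no excess is read from them.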

How the data were processed

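RNA levels were deposited by the authors as TPM per gene, and open chromatin as peak lists with a score for each peak. The submitters' processing notes name the build mm10, which is a C57BL/6J genome, and HOMER, STAR and Bowtie with no version or role. How DBA2J reads mapped to it was not tested. Each peak list is of 1 cell type and strain with 2 ATAC-seq libraries, per the labels.

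The 12277 genes averaging 1 TPM or more were fitted by limma 3.58.1 (R 4.3.3) on log2(TPM + 1), using 1 model of 8 group means over 16 libraries (8 residual degrees of freedom, eBayes with a trend, Benjamini-Hochberg over all of them). The fit was tested on simulated data. Reads were recovered from the TPM, the gene's span and the smallest step of each library, and limma-voom on them was added after the data were seen. The genes and lists were chosen with earlier results of these data known. Named pathway genes were, per contrast, direction and list, up to 3 called genes with the largest difference and at least 10 TPM in the higher group. Not all of them are printed, some genes are not reported here, and Tpcn1, Ctsb, Gla and the other interaction genes are named because they were called.

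Peaks overlapping by 1 bp were merged and assigned to the nearest gene start within 100 kb (Python 3.11.15, pandas 2.3.3, numpy 2.4.6), and matplotlib 3.10.9 drew the figures. Alternatives covered the pseudocount, filter, scaling, trend, replicate block, libraries in the fit, and peak and motif rules.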

Additional observations from a re-analysis of the deposited data

Results flagged for a closer look

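In 11 cases pairs of cell types had strain differences (DBA2J minus C57BL6J, log2(TPM + 1)) with every DBA2J library on one side of C57BL6J in 1 type and on the other side in the second. These differences between types were not tested. The share of all genes with such a pair was not counted, so the number of cases is not read. With 2 libraries a group, absence of overlap is common: in AM 35.2% of all genes were higher in DBA2J without overlap and 17.9% lower.

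For Gpnmb the strain difference in AM (-2.11) minus that in iMo (0.79) was -2.90, and for IM (-4.41) against iMo it was -5.20. For Mcoln1 it was 0.76 for AM (0.18) against IM (-0.58), and -0.88 for IM against iMo (0.30). For Mcoln2 it was 0.63 for AM (0.25) against IM (-0.38), -0.65 for IM against iMo (0.27), and -1.03 for IM against pMo (0.65). For Atp6v0d2 it was -1.94 for IM (-1.67) against iMo (0.27), and 0.48 for iMo against pMo (-0.21), where all monocyte libraries had at most 65 reads. For Tfeb it was 0.44 for AM (0.19) against IM (-0.25), and for Tfe3 0.30 for AM (0.16) against IM (-0.14). After median-of-ratios scaling the AM differences of Mcoln1, Tfeb and Tfe3 were 0.024, 0.030 and 0.006. Their IM differences were then -0.57, -0.25 and -0.14. In 9 of the 11 pairs 1 of the types was IM. The IM libraries differed between strains in AM, neutrophil and iMo marker sums, and other cell types differed in other marker lists. The part of other cells in these pairs was not tested.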

How the results depend on the processing

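With 2 libraries a group, a lone remaining library was assumed to vary like the other groups. Of 361 counts under an alternative 315 stayed within 1.5 times the main count, and of 2164 differences of the 10 genes 1920 stayed within the spread. In 83 the sign changed: 81 where the libraries overlapped between the groups, as for Gpnmb in pMo, Sgsh and Mitf in AM minus IM, and 2 where they did not, both Mcoln2 for AM minus IM (0.066 by median-of-ratios, 0.31 by quantile normalization).

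Pathway genes called between strains in AM (5) were 8 with a pseudocount of 0.1, 8 by median-of-ratios, 12 by quantile normalization, 10 without ribosomal entries and 16 with voom. In IM (29) they were 45 by quantile normalization. In fits of 1 cell type alone limma called 0 in IM, 0 in iMo (main 7) and 0 in pMo (main 6), with 48, 20 and 8 at an unadjusted p under 0.05, where fewer libraries leave fewer degrees of freedom. For iMo minus pMo (58) they were 21 in C57BL6J and 27 in DBA2J alone. Interaction calls (10) were 27 by quantile normalization, 20 without ribosomal entries and 25 with voom. Calls over all genes moved as well. Between strains in AM they were 244 higher and 159 lower as deposited, 329 and 281 by quantile normalization and 613 and 451 with voom. In IM they were 463 and 827 as deposited and 982 and 1180 by quantile normalization. Genes not overlapping in macrophages minus monocytes (5) were 3 at a mean of at least 5 TPM, 3 by quantile normalization and 9 in C57BL6J alone. In AM minus IM (4) they were 2 at 5 TPM, 10 in C57BL6J and 8 in DBA2J alone, and in iMo minus pMo (5) 8 in either strain alone. The share of all genes without overlap was not counted under these settings. Groups of fewer libraries overlap less often, so nothing is read from these counts. Peaks assigned (77) were 41 with scores at or above the list's median.

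Leaving out 1 library gave 2 to 6 in AM, 14 to 34 in IM, 1 to 9 in iMo, 1 to 10 in pMo, 16 to 24 on the strain average, 83 to 93 in macrophages minus monocytes, 85 to 100 in AM minus IM, 36 to 62 in iMo minus pMo and 4 to 18 for the interaction. The replicate block changed no count by over 1.5 times (4 in AM, 29 in IM). Same-numbered libraries deviated together little (28 pairs, -0.07 to 0.20, 5 over 0.1). With 2 libraries a group this cannot tell whether same-numbered libraries share an origin, and no label says so. Where read counts are under 14, as for Mcoln3 outside C57BL6J macrophages, depth limits any comparison.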

Other observations

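The genes most like Gpnmb over the 16 libraries, by Pearson's r of log2(TPM + 1) among 7816 genes averaging 5 TPM or more, were Spint1 (0.884), Tbc1d9b (0.884), Ucp3 (0.873), Cx3cl1 (0.865) and Gna15 (0.862). These r describe libraries that share groups and are not independent. Spint1, a membrane-bound inhibitor of serine proteases, had 0.646 and 0.700 TPM in DBA2J AM against 36.5 and 29.2 TPM in C57BL6J AM, and 0.144 and 0.062 TPM in DBA2J IM against 7.24 and 11.6 TPM in C57BL6J IM. In monocytes it had at most 1.08 TPM. Its strains did not overlap in either macrophage, as with Gpnmb and Mcoln3. The epithelial marker sums were lower in DBA2J AM too, and their part was not tested.

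The genes most like Atp6v0d2 included Pald1 (0.997), Dapk1 (0.996), Dst (0.995) and Tns1 (0.994). Pald1, a phosphatase-like gene, had 38.9 and 42.2 TPM in DBA2J AM against 45.3 and 39.4 TPM in C57BL6J AM. In IM it had 5.81 and 8.22 TPM in DBA2J against 16.2 and 23.9 TPM in C57BL6J, and in monocytes at most 1.10 TPM. These 4 had the lower IM levels in DBA2J, without overlap between the strains, as had the summed AM markers of those libraries, whose part was not tested. Among the 10 genes, Atp6v0d2 and Tfec had the r of 0.956, and Gpnmb and Mcoln3 that of 0.853.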
